A study of Mus musculus with 12 samples.

Results

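The genes described here are 38 genes of glucose use in the mouse heart: glucose transporters, the enzymes of glycolysis, lactate dehydrogenases and lactate carriers, the enzymes that set fructose 2,6-bisphosphate, the pyruvate dehydrogenase kinases, and genes of glycogen and of the pentose phosphate pathway. They were taken by symbol from the 53801 genes of the deposited tables, and the identifier with the most counts was kept where a symbol stood on more than 1, which applied to Aldoa alone (the other identifier held 55 counts over 12 hearts). All 38 passed the filter on low counts, as did 15306 genes in all.

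The study profiled RNA from whole hearts of adult male C57BL/6N mice after acute myocardial infarction (AMI), made by tying off the left anterior descending coronary artery, or after sham surgery. There were 4 sham hearts, 4 hearts at day 1 and 4 hearts at day 7, and no sampling day is given for sham. The comparisons ask how transcript levels stood at each day of infarction relative to sham, and how day 7 stood relative to day 1. The permanent tie leaves no reperfusion, and a whole heart pools infarcted and remote muscle, so the values are averages over both. Depth ran from 23204551 to 32166517 counts per heart (23253576 to 26573727 in sham, 25541858 to 32166517 at day 1, 23204551 to 28738082 at day 7).

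Glycolysis breaks glucose down to pyruvate in the cytosol, and pyruvate either enters the mitochondria through pyruvate dehydrogenase or is turned to lactate. The adult heart draws most of its energy from fatty acids, and many steps of the pathway are served there by a muscle-type isoform encoded by a gene of its own beside a more widely expressed form. Glycogen is the stored form of glucose, and the pentose phosphate pathway diverts glucose 6-phosphate to make NADPH and ribose.

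Several genes of glycolysis are textbook targets of hypoxia-inducible factors, whose recognition core is ACGTG, so the 250 bases before the RefSeq start (GRCm38.p6) of each member were searched for ACGTG on both strands. CACGTG, which holds ACGTG and counts as 2 matches because it reads the same on both strands, was searched as well. A promoter was found for 37 of the 38 members, all but Slc2a4. In the first listed window, ACGTG was present in 16 of 37 members (43.2%) and in 16.6% of all 27025 genes, and CACGTG in 5 of 37 (13.5%) against 6.05%. The median GC content of these windows was 60% in the members and 52% in all genes, and its part in the difference in motif share was not tested. Printed below are 4 windows that lie outside annotated exons and hold ACGTG, those of Hk2, Pgk1, Slc16a1 and Pdk2. They were chosen to show more than 1 course after infarction, though Hk2 and Slc16a1 had the same calls (none at day 1, falls at day 7 against sham and against day 1). Capitals mark ACGTG or its reverse complement CACGT, and each sequence runs 5′ to 3′ on the strand of its gene. The windows are Hk2 (chr6:82774455-82774704, minus strand), Pgk1 (chrX:106186850-106187099, plus strand), Slc16a1 (chr3:104638414-104638663, plus strand) and Pdk2 (chr11:95041372-95041621, minus strand).
Hk2: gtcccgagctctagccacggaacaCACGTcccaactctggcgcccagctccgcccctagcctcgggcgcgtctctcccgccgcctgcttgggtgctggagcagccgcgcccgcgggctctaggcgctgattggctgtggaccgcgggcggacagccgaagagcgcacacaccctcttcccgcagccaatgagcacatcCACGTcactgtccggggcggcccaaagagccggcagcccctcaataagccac
Pgk1: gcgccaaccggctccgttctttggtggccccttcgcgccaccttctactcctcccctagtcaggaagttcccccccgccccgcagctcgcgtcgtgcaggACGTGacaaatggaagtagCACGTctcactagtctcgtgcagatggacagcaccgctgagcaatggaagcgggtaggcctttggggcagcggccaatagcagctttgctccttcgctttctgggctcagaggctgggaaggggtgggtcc
Slc16a1: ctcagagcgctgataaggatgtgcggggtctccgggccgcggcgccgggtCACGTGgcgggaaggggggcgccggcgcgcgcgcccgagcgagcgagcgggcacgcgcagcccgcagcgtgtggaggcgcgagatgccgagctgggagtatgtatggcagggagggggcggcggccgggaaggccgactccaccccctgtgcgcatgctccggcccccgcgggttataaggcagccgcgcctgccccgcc
Pdk2: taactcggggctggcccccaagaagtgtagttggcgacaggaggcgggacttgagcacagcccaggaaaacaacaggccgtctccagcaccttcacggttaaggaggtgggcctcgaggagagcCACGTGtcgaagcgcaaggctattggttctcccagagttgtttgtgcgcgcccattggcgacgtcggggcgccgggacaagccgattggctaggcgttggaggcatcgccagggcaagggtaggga

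Each of the 4 windows holds 2 matches, and those of Slc16a1 and of Pdk2 are the 2 strands of a CACGTG. The RefSeq start lies 4 bases before the GENCODE start for Slc16a1 and 17 bases before it for Pdk2, and at the GENCODE start for Hk2 and Pgk1. Of the members with a window, ACGTG was present in 7 of 16 that rose, 5 of 15 that fell and 4 of 6 with no call at day 1, and in 4 of 10 that rose, 7 of 20 that fell and 5 of 7 with no call at day 7. A match describes these letters only, and binding was not measured.

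At day 1 the members split evenly: 16 of 38 rose and 16 fell against sham by the edgeR quasi-likelihood test (Benjamini-Hochberg adjusted p under 0.05), beside 22% and 19.9% of all genes tested. With a fold change of at least 2 as well, 7 rose (Slc2a1, Hk3, Pfkp, Aldoc, Slc16a3, Pdk3 and G6pdx) and none fell, beside 7.79% and 2.98% of all genes. Leaving out 1 heart at a time put these rises between 3 and 9 and these falls between 0 and 2. In 14 members every day 1 heart was above every sham heart and in 15 every day 1 heart was below, beside 19.6% and 17.1% of all genes. Among those that rose were Slc2a1, Hk1, Hk3, Pfkp, Pgam1, Eno1, Slc16a3 and all 4 pentose phosphate members, and those that fell included Slc2a4, Pfkm, Pgam2, Eno3, Ldhb and Pygm, none of whose directions changed under the other scalings. The median log2 fold change of the members was 0.12, and that of all genes -0.012. In bulk tissue, fewer cells of a type and less RNA per cell cannot be told apart.

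At day 7 falls outnumbered rises: 10 members rose and 21 fell against sham, beside 30.9% and 28.4% of all genes. With the fold rule 3 rose (Hk3, Slc16a3 and Pdk3) and 7 fell (Slc2a4, Pfkm, Eno3, Ldhb, Pfkfb1, Pdk2 and Pygm), beside 15.3% and 5.88%. In 10 members the day 7 hearts were all above the sham hearts and in 19 all below, beside 28.2% and 24.7%. The median of the members was -0.32 and that of all genes 0.026. Against day 1, 1 member rose at day 7 (Pdk3) and 22 fell, beside 24.2% and 22.8% of all genes, and with the fold rule none rose and 4 fell (Slc2a1, Hk2, Slc16a3 and Pfkfb1), beside 8.55% and 2.69%. The 2 groups of infarcted hearts did not overlap in 19 members, all lower at day 7, beside 21% of all genes lower and 23.5% higher. The comparisons with sham share the sham hearts, and those with day 1 share the day 1 hearts.

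These directions are relative to the bulk of genes, and the choice of scale moves that reference. The TMM factors, which correct for the share of counts taken by a few genes, were 0.781 to 0.917 in sham, 1.01 to 1.06 at day 1 and 1.10 to 1.17 at day 7, so the groups did not overlap. Transcripts of mitochondrial genes took 17.9% to 27.4% of counts in sham, 12.1% to 15.9% at day 1 and 13.2% to 19.2% at day 7, and their part in the factors was not tested. With library sizes alone the median of all genes moved to 0.26 at day 1, 0.42 at day 7 and 0.15 between the days, and on log2(TPM + 0.1) to 0.31, 0.57 and 0.25. On log2(TPM + 1) the medians were 0.23, 0.44 and 0.18. Of these, only library sizes alone change the scaling and nothing else: the fits on TPM, named with the scalings below, used limma on the RSEM values, so the test, the quantifier and the length unit changed as well, and what is seen on TPM alone cannot be put down to 1 of these. RLE factors, which also change the scaling alone, kept all 32, 31 and 23 member calls and added Pfkm and Pgam1 between the days. The share of rises among the called members went from 50% at day 1 to 72.4% with library sizes alone, 74.1% on TPM + 1 and 75% on TPM + 0.1, and from 32.3% at day 7 to 52%, 68% and 68%. Between the days it went from 4.35% to 17.6%, 45.5% and 45.5%. Among all genes called, the share of rises moved the same way, from 52.5% to 85.6%, 89.3% and 89.3% at day 1, from 52.1% to 83.2%, 90.2% and 90.4% at day 7 and from 51.4% to 68.8%, 80.6% and 80.5% between the days. With the fold rule, the 3 rises and 7 falls of members at day 7 became 9 and 2 with library sizes alone and 9 and 1 on both TPM scales. Whether the hearts of 2 groups overlapped was judged on CPM with TMM factors only, here and below. In TPM, Pfkm, Pgam2 and Eno3 were each higher in day 1 replicate 4 than in sham replicate 1.

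All 3 scalings move the bulk of genes upward, which favours the calls of rises over those of falls in any list. At day 1, 15 of 16 rises kept their call in all 3 (all but Pygl), and 7 of 16 falls did: Slc2a4, Pfkm, Eno3, Ldhb, Pfkfb1, Pdk2 and Pygm. At day 7 all 10 rises kept their call, and 8 of 21 falls did: Slc2a4, Hk2, Pfkm, Eno3, Ldhb, Pfkfb1, Pdk2 and Pygm. Of the 22 falls between the days, 6 kept their call: Slc2a1, Hk1, Hk2, Slc16a1, Pfkfb1 and Taldo1. The other 16 lost their call in at least 1 scaling, so those given below hold on the TMM scale. The TPM scales also called rises that the TMM scale did not: Hk2, Pkm, Ldha, Slc16a1 and Pfkfb3 at day 1, and Hk1, Pgam1, Ldha and Pfkfb3 at day 7, when they also called Gapdh, Pgk1 and Taldo1 as rises, which are falls on the TMM scale. Library sizes alone called the same 5 at day 1, and Aldoc, Pgam1 and Pfkfb3 at day 7. In summed TPM the members as a whole took 1.69 ± 0.106% of a sham heart's transcripts (SD, n = 4), 1.63 ± 0.0615% at day 1 and 1.62 ± 0.0697% at day 7.

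**Figure D1:**
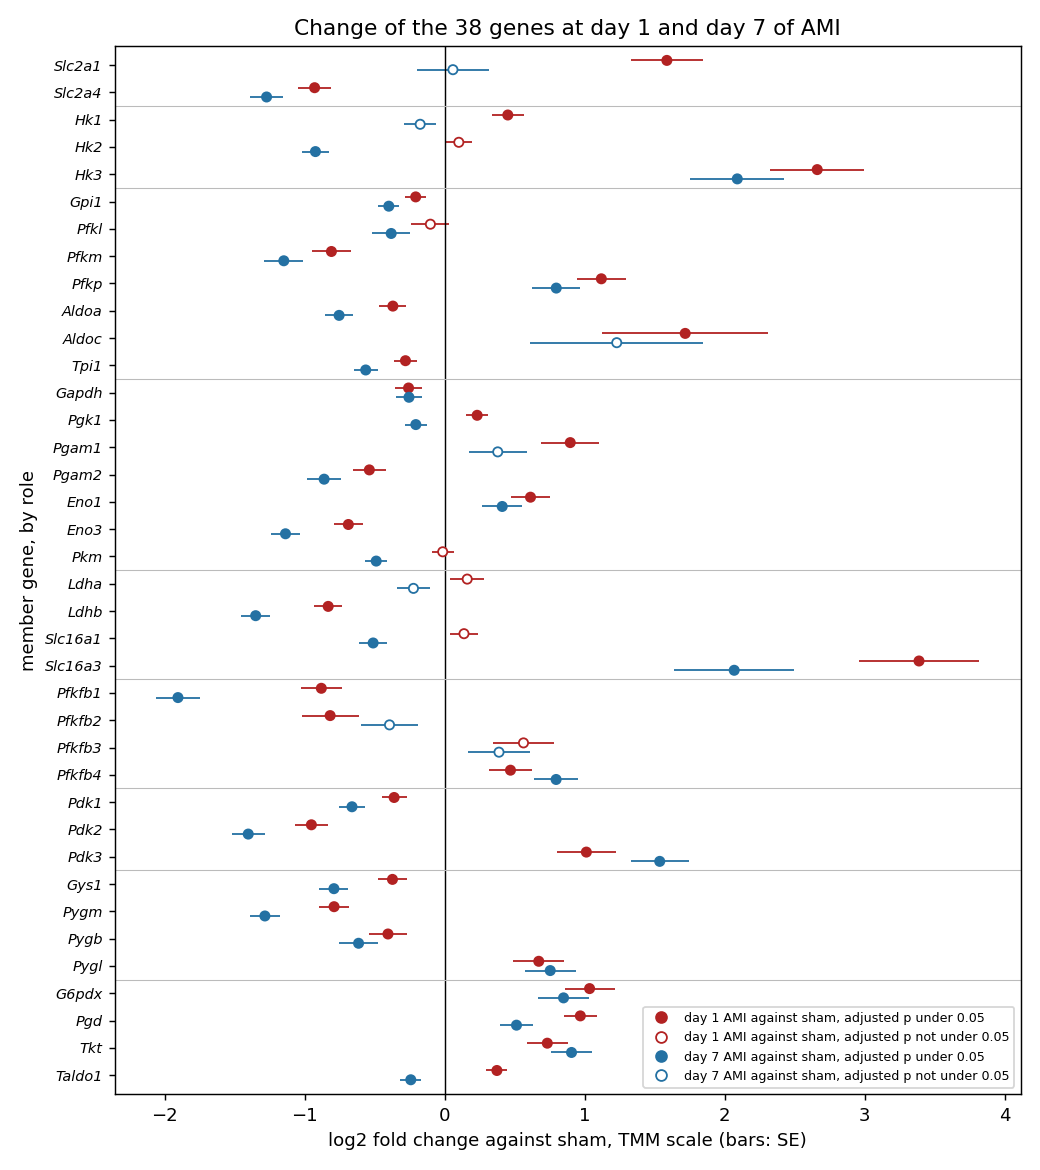
Log2 fold change of each of the 38 members against sham at day 1 and day 7 on the TMM scale, by role, with SE bars; filled points have an adjusted p under 0.05. Slc16a3 at day 1 has the largest rise. Gpi1, Tpi1 and Gapdh (day 1 and day 7) and Pfkl, Pgk1, Pkm, Slc16a1 and Taldo1 (day 7), drawn below 0 with an adjusted p under 0.05, change sign in at least 1 of the other scalings.

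**Figure D2:**
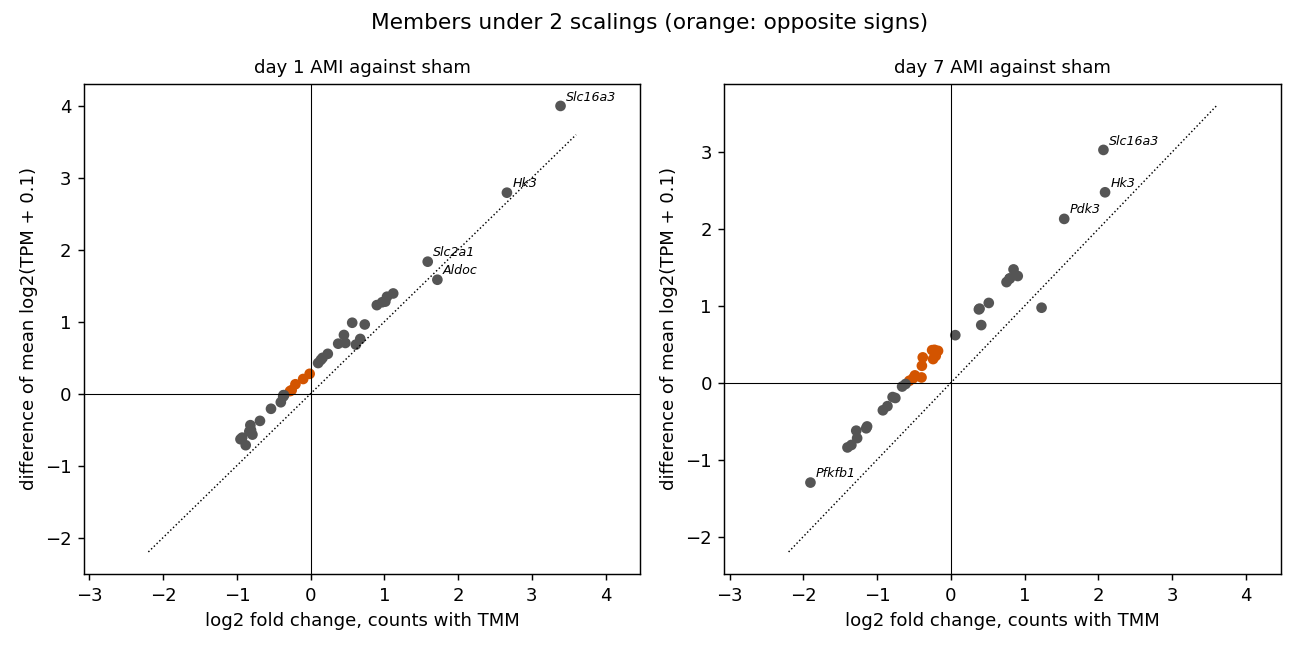
Log2 fold change of each member on counts with TMM factors (horizontal) against its difference in mean log2(TPM + 0.1) (vertical), for day 1 and day 7 against sham; the dotted line marks equality. Orange points have opposite signs on the 2 scales: Gpi1, Pfkl, Tpi1, Gapdh and Pkm at day 1, and Hk1, Gpi1, Pfkl, Tpi1, Gapdh, Pgk1, Pkm, Ldha, Slc16a1, Pfkfb2 and Taldo1 at day 7.

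Cell type markers moved between the groups. The summed level of 11 cardiomyocyte markers, led by Myl2, was 86167, 87802, 98257 and 96857 TPM in the sham hearts, 78004, 69390, 78122 and 80294 TPM at day 1 and 68249, 60493, 72272 and 67468 TPM at day 7, and 10 of the 11 fell against sham at each day. The 6 leukocyte markers, led by Tyrobp, summed to 94.8, 120.3, 67.2 and 60.2 TPM in the sham hearts, 304, 424, 264 and 310.1 TPM at day 1 and 589, 350.1, 343 and 570 TPM at day 7, and all 6 rose at each day. The 8 fibroblast markers, led by Col3a1, summed to 598, 607, 501 and 526 TPM in the sham hearts, 713, 916, 717 and 946 TPM at day 1 and 6641, 5032, 3755 and 5252 TPM at day 7. In cardiomyocyte level every infarcted heart was below every sham heart, and day 7 replicate 3 was above day 1 replicate 2. In fibroblast level every day 7 heart was far above all others, and 6 of the 8 genes rose and 1 (Dcn) fell at day 1, and all 8 rose at day 7.

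Markers of macrophages (8 genes, led by C1qa) summed to 109.9, 171, 102 and 88.7 TPM in the sham hearts, 247, 294, 209 and 267 TPM at day 1 and 510.5, 303, 286 and 442 TPM at day 7, and 6 rose at day 1 and all 8 at day 7. Neutrophil markers (7 genes, led by S100a8) summed to 104, 236, 9.46 and 4.27 TPM in the sham hearts, 214, 468, 113 and 206 TPM at day 1 and 24.9, 13.1, 26 and 175 TPM at day 7, with sham replicates 1 and 2 far above the other two sham hearts. Erythroid markers (7 genes, led by Hbb-bs) summed to 3636, 15177, 1617 and 1840 TPM in the sham hearts, 1645, 2207, 2542 and 2498 TPM at day 1 and 3191, 1172, 2516 and 4821 TPM at day 7, with sham replicate 2 the highest of the 12. On CPM sham replicate 2 was also the highest sham heart for 21 of the 38 members (55.3%), beside 27.9% of all genes tested: Slc2a1, Slc2a4, Hk1, Hk2, Hk3, Gpi1, Pfkl, Pfkp, Aldoa, Tpi1, Pgam1, Eno1, Ldha, Slc16a3, Pfkfb2, Pfkfb4, Pygl, G6pdx, Pgd, Tkt and Taldo1. Likewise day 1 replicate 2, which had the highest leukocyte, macrophage and neutrophil sums of its group, was the highest day 1 heart for 20 of the 38 members (52.6%), beside 31.1% of all genes tested. None of the markers was at 0 in every heart.

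The other lists were summed in the same way. Endothelial markers (led by Egfl7) stood at 410.2 ± 66.3 TPM in sham, 476 ± 13.1 TPM at day 1 and 836 ± 73.2 TPM at day 7, and mural markers (led by Acta2) at 398 ± 42.9 TPM in sham, 406 ± 35.6 TPM at day 1 and 857 ± 284 TPM at day 7. T cell markers (led by Trac) stood at 2 ± 0.0216 TPM in sham, 4.31 ± 1.97 TPM at day 1 and 9.31 ± 1.86 TPM at day 7, and adipose markers (led by Adipoq) at 3.07 ± 2.22 TPM in sham, 2.21 ± 1.28 TPM at day 1 and 2.64 ± 1.59 TPM at day 7. Atrial markers (led by Nppa) stood at 623 ± 611 TPM in sham, 2314 ± 794 TPM at day 1 and 4099 ± 688 TPM at day 7. The atrial sum of sham replicate 4 (1523 TPM) was far above those of the other sham hearts (165.3, 441.2 and 363.7 TPM) and above that of day 1 replicate 4 (1202 TPM). Skeletal muscle markers (led by Acta1) stood at 308 ± 220.1 TPM in sham, 866 ± 415 TPM at day 1 and 1077 ± 253 TPM at day 7. Only 2 of the 7 skeletal muscle markers passed the filter on low counts, of which 1 rose at day 1 and 2 at day 7. Acta1 made up nearly all of this sum in every heart, such as 150.8 of 151.4 TPM in sham replicate 1 and 1377 of 1380 TPM in day 1 replicate 1. The mean log2 CPM over the 7 markers was -1.169 ± 0.199 in sham, -0.938 ± 0.193 at day 1 and -0.270 ± 0.924 at day 7. The sum thus describes Acta1 and not the list.

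These sums follow the most abundant genes and are in TPM, and the calls of single markers on the TMM scale could go another way. Of 7 endothelial markers 3 fell at day 1 (median log2 fold change -0.30) and 5 rose at day 7 (0.33), and of 7 mural markers 3 fell at day 1 (0.14) and 3 rose and 2 fell at day 7 (0.28). Of 4 atrial markers Nppa alone rose, at each day, and the other three had values under 0 at day 7 that did not pass, so that the median was 0.26 at day 1 and -0.52 at day 7. Of 6 tested neutrophil markers 2 rose at day 1, and 1 rose and 1 fell at day 7, and of 6 tested erythroid markers 4 fell at each day. For every tested erythroid marker the infarcted hearts overlapped sham. The erythroid sum was 15177 TPM in sham replicate 2, against 3636, 1617 and 1840 TPM in the other sham hearts, and its part in these falls was not tested. Of 5 tested T cell markers 1 rose at day 1 and all 5 at day 7. The part that any of these shifts had in the results below was not tested.

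**Figure D3:**
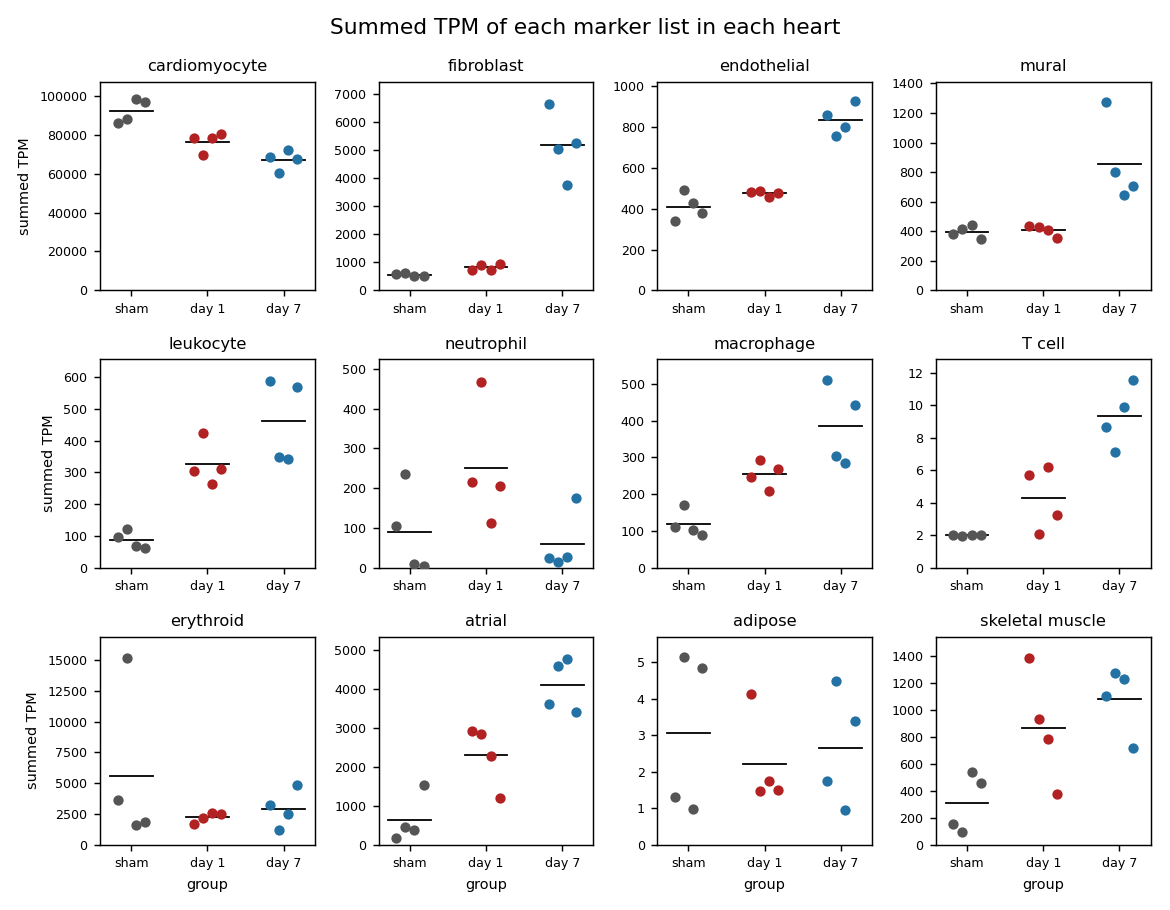
Summed TPM of each of 12 marker lists in each heart (points, in the order of the replicates) with the group mean (line). Cardiomyocyte markers are lower and leukocyte, macrophage and fibroblast markers higher in the infarcted hearts, and sham replicate 2 stands apart in the erythroid panel.

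Glucose enters the cardiomyocyte through the basal transporter GLUT1, encoded by Slc2a1, and the insulin-responsive transporter GLUT4, encoded by Slc2a4. Slc2a1 stood at 18.4, 27.3, 18.6 and 15.7 CPM in the sham hearts, at 72.3, 89.6, 43.9 and 35 CPM at day 1 and at 25.3, 19, 18.6 and 20.5 CPM at day 7. Every day 1 heart was above every sham heart, with replicates 1 and 2 the highest, and the day 7 hearts overlapped sham. Slc2a1 rose at day 1 (log2 fold change 1.59, SE 0.26, adjusted p = 0.000321) and fell from day 1 to day 7 (log2 fold change -1.53, SE 0.25, adjusted p = 0.000256), and its change from sham to day 7 did not pass the test (log2 fold change 0.060, SE 0.26, adjusted p = 0.855). Slc2a4 stood at 557, 664, 581 and 616 CPM in the sham hearts, at 323, 243, 371 and 333 CPM at day 1 and at 244, 234, 281 and 242 CPM at day 7. All infarcted hearts were below all sham hearts, and day 1 and day 7 overlapped. Slc2a4 fell at day 1 (log2 fold change -0.93, SE 0.12, adjusted p = 6.66e-05) and at day 7 (log2 fold change -1.27, SE 0.12, adjusted p = 8.43e-07). Its fall between the days (log2 fold change -0.34, SE 0.12, adjusted p = 0.0259) was lost without any 1 of day 1 replicates 1, 3 or 4 or day 7 replicates 1, 2 or 4 (adjusted p from 0.0535 to 0.0972), and without day 1 replicate 3 its log2 fold change at day 1 was -1.01, past the fold rule.

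Between isoforms, levels were compared in TPM, which is per length, as the log2 ratio of 2 genes within a heart. An exact two-sided permutation test of 4 hearts against 4 was run on 17 pairs in 3 comparisons, 51 tests in all, with Benjamini-Hochberg adjustment over the 51. The smallest p this design allows is 0.0286, and every pair called apart reached it, with an adjusted p of 0.047. That value sits just under 0.05 and depends on 31 of the 51 tests having reached the minimum, since at least 30 had to. Against sham, 13 pairs were apart at day 1 and 15 at day 7, and between the days 3 were. All 13 at day 1 and 14 of 15 at day 7 had a higher ratio of the first-named gene to the second, and in all 17 pairs the second-named gene had the higher mean log2 TPM in sham. The share apart among comparable pairs of other genes was not computed. On log2(TPM + 0.1) the median of all genes was 0.31 at day 1 and 0.57 at day 7, and its part here was not tested. Hk2, Pfkm, Pfkfb2, Pdk2 and Pygm each stand second in more than 1 pair, and the comparisons share hearts. The 17 pairs are thus not separate results.

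The ratio of Slc2a1 to Slc2a4 was higher at day 1 by 2.45 and at day 7 by 1.34 on the log2 scale, and changed by -1.11 from day 1 to day 7. In TPM, Slc2a4 remained far above Slc2a1 in each group, and the share of Slc2a1 in their summed TPM went from 2.48 ± 0.45% in sham to 13.2 ± 6.98% at day 1 and 6.08 ± 1.22% at day 7.

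Hexokinases trap glucose in the cell as glucose 6-phosphate. Hk1, the widely expressed form, stood at 229.8, 264, 189.8 and 179.6 CPM in the sham hearts, at 293, 339.9, 284 and 264 CPM at day 1 and at 199, 184, 196 and 187 CPM at day 7. Day 1 hearts were the highest, though sham replicate 2 reached the lowest of them. Hk1 rose at day 1 (log2 fold change 0.45, SE 0.12, adjusted p = 0.00675) and fell from day 1 to day 7 (log2 fold change -0.63, SE 0.12, adjusted p = 0.000594). Against sham at day 7 its value was -0.17, which did not pass the test, turned positive on the other 3 scalings and was called a rise on both TPM scales. Hk2, the insulin-responsive muscle form, stood at 402, 429, 387 and 335 CPM in the sham hearts, at 450.2, 384, 446 and 387 CPM at day 1 and at 218, 183, 215 and 204 CPM at day 7. Sham and day 1 overlapped and all day 7 hearts were below both. Hk2 fell at day 7 against sham (log2 fold change -0.92, SE 0.096, adjusted p = 2.33e-06) and against day 1 (log2 fold change -1.02, SE 0.097, adjusted p = 2.44e-06), the second falling just short of the fold rule without day 1 replicate 1 or 3 or day 7 replicate 2 (log2 fold change -0.988, -0.990 and -0.975), and at day 1 did not pass the test (log2 fold change 0.10, SE 0.096, adjusted p = 0.413).

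Hk3, a form found in white blood cells, stood at 0.991, 1.89, 1.02 and 0.86 CPM in the sham hearts, at 7.99, 9.75, 6.02 and 6.84 CPM at day 1 and at 5.97, 4.05, 2.65 and 7.85 CPM at day 7. Its levels were low in all sham hearts and higher in every infarcted heart, with sham replicate 2 the highest of the sham hearts. Hk3 rose at day 1 (log2 fold change 2.66, SE 0.34, adjusted p = 6.61e-05) and at day 7 (log2 fold change 2.09, SE 0.34, adjusted p = 0.000102), and its difference between the days did not pass (log2 fold change -0.57, SE 0.29, adjusted p = 0.12) except without day 7 replicate 4 (log2 fold change -0.85, adjusted p = 0.0288). The ratio of Hk1 to Hk2 in TPM was higher at day 1 by 0.39 and at day 7 by 0.77, and that of Hk3 to Hk2 by 2.37 and 2.83. The share of Hk2 in the summed TPM of the 3 went from 56 ± 2.76% in sham to 48.6 ± 4.18% at day 1 and 41.9 ± 1.3% at day 7, and Hk1 was the more abundant of Hk1 and Hk2 in TPM in all day 7 hearts.

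Phosphofructokinase commits fructose 6-phosphate to glycolysis, and its muscle (Pfkm), liver (Pfkl) and platelet (Pfkp) subunits have a gene each. Pfkm stood at 1128, 1142, 1253 and 1314 CPM in the sham hearts, at 686, 505, 725 and 847 CPM at day 1 and at 551, 505, 637 and 488 CPM at day 7. All infarcted hearts were below all sham hearts, with day 1 replicate 2 the lowest of its group. Pfkm fell at day 1 (log2 fold change -0.81, SE 0.14, adjusted p = 0.000462) and at day 7 (log2 fold change -1.15, SE 0.14, adjusted p = 7.93e-06), and its difference between the days (log2 fold change -0.34, SE 0.14, adjusted p = 0.054) did not pass the test, though it did without day 1 replicate 2 (adjusted p = 0.00452) or day 7 replicate 3 (adjusted p = 0.0284), and also with RLE factors, without the filter on low counts, with a block on replicate number and in DESeq2 (adjusted p from 0.0259 to 0.0496). Pfkp stood at 73.2, 93.6, 76.8 and 70.7 CPM in the sham hearts, at 198, 227, 136 and 122 CPM at day 1 and at 125, 129.9, 131 and 160.1 CPM at day 7. Every infarcted heart was above every sham heart, and day 1 replicates 1 and 2 were the highest. Pfkp rose at day 1 (log2 fold change 1.12, SE 0.17, adjusted p = 0.000237) and at day 7 (log2 fold change 0.80, SE 0.17, adjusted p = 0.00113), and without day 1 replicate 2 its day 1 value was 0.95, under the fold rule.

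Pfkl ranged from 109 CPM in a day 7 heart to 220.0 CPM in sham replicate 2. Its value at day 7 was a fall on the TMM scale (log2 fold change -0.38, SE 0.14, adjusted p = 0.0266) that turned positive on the other 3 scalings. It did not pass without sham replicate 2 or day 7 replicate 2 or 3 (log2 fold change -0.207, -0.320 and -0.364, adjusted p = 0.0962, 0.0802 and 0.0571). At day 1 it did not pass (log2 fold change -0.10, SE 0.14, adjusted p = 0.578) and was positive on the other 3 scalings, and its difference between the days (log2 fold change -0.28, SE 0.14, adjusted p = 0.107) did not pass, though it did without sham replicate 2 (adjusted p = 0.0241) and in a fit of only the 2 groups compared (adjusted p = 0.0263). In TPM the ratio of Pfkp to Pfkm was higher at day 1 by 1.90 and at day 7 by 1.95, and that of Pfkl to Pfkm was higher at day 7 by 0.92 (at day 1 0.71, exact p = 0.0857, adjusted p = 0.118). The share of Pfkp in the summed TPM of the 3 genes went from 4.55 ± 0.577% in sham to 14.9 ± 5.77% at day 1 and 14.6 ± 2.19% at day 7, and Pfkm was the most abundant in TPM in every group.

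Aldolase splits fructose 1,6-bisphosphate. Aldoa, the muscle and general form, had 3159 ± 399.5 CPM in sham, 2446 ± 27.6 CPM at day 1 and 1874 ± 120.1 CPM at day 7, and fell at day 1 (log2 fold change -0.37, SE 0.097, adjusted p = 0.00763) and at day 7 (log2 fold change -0.75, SE 0.097, adjusted p = 1.51e-05), calls that neither TPM scale gave on either day nor library sizes alone at day 1. Aldoc, the brain form, stood at 0.0521, 0.205, 0.097 and 0.287 CPM in the sham hearts, at 0.459, 0.984, 0.196 and 0.536 CPM at day 1 and at 0.339, 0.347, 0.184 and 0.68 CPM at day 7, from 127 counts over the 12 hearts. Groups overlapped and sham levels were near the 3-count floor of 0.123 to 0.156 CPM. Its rise at day 1 (log2 fold change 1.72, SE 0.59, adjusted p = 0.0317) was lost without sham replicate 1, sham replicate 3 or day 1 replicate 2 (adjusted p = 0.0827, 0.0811 and 0.127), and in a fit of only the sham and day 1 hearts it did not pass the filter on low counts and was not tested. It did not pass at day 7 (log2 fold change 1.23, SE 0.62, adjusted p = 0.102), though it did with the block (adjusted p = 0.0415) and with library sizes alone (adjusted p = 0.0349), or between the days (log2 fold change -0.49, SE 0.50, adjusted p = 0.44), and the TPM ratio of Aldoc to Aldoa was not apart (1.60, exact p = 0.0571, adjusted p = 0.0833 at day 1). Gpi1 and Tpi1, an isomerase each of the upper pathway, had 699 ± 28.6 CPM in sham, 606 ± 34.8 CPM at day 1 and 530.5 ± 24.2 CPM at day 7, and 737 ± 65.1 CPM in sham, 608 ± 26.4 CPM at day 1 and 499 ± 31.9 CPM at day 7. Both fell on the TMM scale at day 1 (-0.21 and -0.28) and at day 7 (-0.40 and -0.56), and both turned positive on both TPM scales at each day. The day 1 call of Gpi1 was lost without any 1 sham heart, day 1 replicate 1, 3 or 4 or day 7 replicate 4 (adjusted p from 0.0514 to 0.108), and also without the filter, with the block and in the fit of 2 groups (adjusted p = 0.156, 0.0756 and 0.0704). That of Tpi1 was lost without day 1 replicate 3 (adjusted p = 0.0556) and without the filter (adjusted p = 0.0528).

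**Figure D4:**
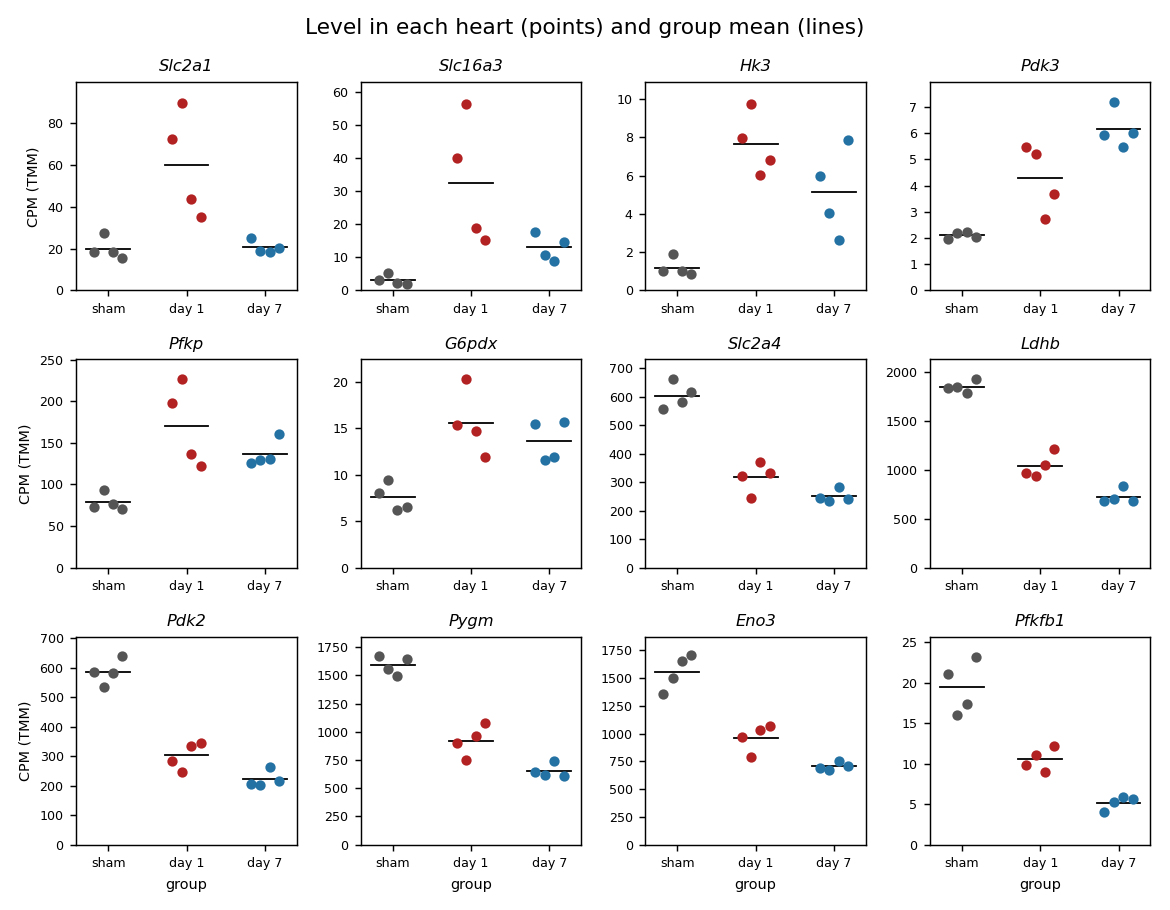
CPM on the TMM scale of 12 members in each heart (points, in the order of the replicates) with the group mean (line). The first 6 panels show genes whose day 1 hearts all exceed the sham hearts and the last 6 genes whose infarcted hearts all lie below the sham hearts. The directions of change are the same in the other scalings, but the separation of the hearts is that of the TMM scale. In TPM, Eno3 was higher in day 1 replicate 4 than in sham replicate 1.

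Gapdh, Pgk1 and Pkm serve steps of the lower pathway with no isoform gene among the members. Gapdh ranged from 2710 to 4160 CPM over the 12 hearts, and it fell at day 1 (log2 fold change -0.26, SE 0.096, adjusted p = 0.0439) and at day 7 (log2 fold change -0.25, SE 0.096, adjusted p = 0.0335) on the TMM scale but turned positive on the other 3 scalings at each day, and at day 7 both TPM scales called it a rise. Its day 1 call was lost without any 1 heart but sham replicate 2 (adjusted p from 0.0501 to 0.139), and its day 7 call without sham replicate 1 or 4 or day 7 replicate 1, 2 or 4 (adjusted p from 0.056 to 0.106). Both calls were also lost without the filter and with the block, and that of day 1 in a fit of only the 2 groups compared (adjusted p from 0.061 to 0.119). Pgk1 had 409.7 ± 25 CPM in sham, 482 ± 37.2 CPM at day 1 and 355 ± 15.2 CPM at day 7, a rise at day 1 (log2 fold change 0.23, SE 0.080, adjusted p = 0.0312) lost without sham replicate 1 or 2 or day 1 replicate 1 or 2 (adjusted p from 0.0501 to 0.0933), and also without the filter, with the block and in the fit of 2 groups (adjusted p = 0.0601, 0.0615 and 0.0544). Its fall at day 7 (log2 fold change -0.20, SE 0.080, adjusted p = 0.0397) turned positive on the other 3 scalings, as a called rise on both TPM scales, and was lost without sham replicate 2, 3 or 4 or day 7 replicate 1, 2 or 3 (adjusted p from 0.0601 to 0.0932), and also without the filter and with the block (adjusted p = 0.0978 and 0.0716). From day 1 to day 7 Pgk1 fell (log2 fold change -0.44, SE 0.080, adjusted p = 0.00054). Pkm had 1449 ± 40.7 CPM in sham, 1436 ± 72.8 CPM at day 1 and 1033 ± 63.6 CPM at day 7, and its fall at day 7 (log2 fold change -0.49, SE 0.078, adjusted p = 0.0001) turned positive on the TPM scales, while at day 1 it did not pass (log2 fold change -0.013, SE 0.078, adjusted p = 0.912) and was positive on the other 3 scalings. From day 1 to day 7 Pkm fell (log2 fold change -0.47, SE 0.078, adjusted p = 0.000244).

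Phosphoglycerate mutase has a general form, Pgam1, and a muscle form, Pgam2. Pgam1 stood at 35.1, 42.1, 26.6 and 22 CPM in the sham hearts, at 56.5, 79.7, 50.02 and 48.4 CPM at day 1 and at 48, 43.4, 29.7 and 42.9 CPM at day 7. Every day 1 heart was above every sham heart, and day 7 overlapped sham. Pgam1 rose at day 1 (log2 fold change 0.90, SE 0.21, adjusted p = 0.00362), by 1.07 without sham replicate 2, past the fold rule. At day 7 it did not pass the test (log2 fold change 0.38, SE 0.21, adjusted p = 0.13), though it did without sham replicate 2 or day 7 replicate 3 (adjusted p = 0.034 and 0.0499), with the block (adjusted p = 0.025) and on the other 3 scalings. Its difference between the days (log2 fold change -0.52, SE 0.20, adjusted p = 0.0516) did not pass, though it did without sham replicate 2 or 4, day 1 replicate 3 or 4 or day 7 replicate 1 (adjusted p from 0.0331 to 0.0496). It passed as well with RLE factors, without the filter, with the block, in a fit of only the 2 groups compared and in DESeq2 (adjusted p from 0.0119 to 0.0443). Pgam2 stood at 446, 438, 573 and 594 CPM in the sham hearts, at 357, 299, 363 and 394 CPM at day 1 and at 289, 265, 311 and 264 CPM at day 7. All infarcted hearts were below all sham hearts. Pgam2 fell at day 1 (log2 fold change -0.54, SE 0.12, adjusted p = 0.00259) and at day 7 (log2 fold change -0.86, SE 0.12, adjusted p = 2.67e-05), calls that neither TPM scale gave on either day nor library sizes alone at day 1. Its fall between the days (log2 fold change -0.32, SE 0.12, adjusted p = 0.0361) was lost without day 1 replicate 1, 3 or 4 or day 7 replicate 1, 2 or 4 (adjusted p from 0.0537 to 0.0952). The TPM ratio of Pgam1 to Pgam2 was higher by 1.44 at day 1 and 1.26 at day 7, and the share of Pgam1 went from 2.29 ± 0.958% in sham to 5.83 ± 2.07% at day 1 and 5.08 ± 1.13% at day 7.

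Enolase likewise has a general form, Eno1, and a muscle form, Eno3. Eno1 stood at 204, 239, 197 and 188 CPM in the sham hearts, at 350.1, 402, 272 and 244 CPM at day 1 and at 284, 268, 241 and 309 CPM at day 7. All infarcted hearts were above all sham hearts. Eno1 rose at day 1 (log2 fold change 0.61, SE 0.14, adjusted p = 0.00362) and at day 7 (log2 fold change 0.41, SE 0.14, adjusted p = 0.0219), the latter lost without sham replicate 3 or 4 or day 7 replicate 4 (adjusted p = 0.0554, 0.0627 and 0.0673). Eno3 stood at 1357, 1497, 1653 and 1706 CPM in the sham hearts, at 972, 789, 1030 and 1067 CPM at day 1 and at 693, 673, 750.5 and 709.8 CPM at day 7. Its 3 groups did not overlap, in the order sham, day 1, day 7 from high to low. Eno3 fell at day 1 (log2 fold change -0.69, SE 0.11, adjusted p = 0.000232), at day 7 (log2 fold change -1.14, SE 0.11, adjusted p = 9.37e-07) and between the days (log2 fold change -0.45, SE 0.11, adjusted p = 0.00322). The TPM ratio of Eno1 to Eno3 was higher by 1.06 at day 1 and by 1.32 at day 7, and the share of Eno1 went from 11.8 ± 1.7% in sham to 22 ± 5.54% at day 1 and 24.9 ± 2.06% at day 7.

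Lactate dehydrogenase interconverts pyruvate and lactate, with Ldha the muscle-type and Ldhb the heart-type subunit. Ldha stood at 870, 1112, 739 and 748 CPM in the sham hearts, at 1044, 1036, 888 and 914 CPM at day 1 and at 763, 724, 699 and 789 CPM at day 7. The groups overlapped, and sham replicate 2 was the highest of the 12. Ldha did not pass the test at day 1 (log2 fold change 0.16, SE 0.12, adjusted p = 0.303), though it did without sham replicate 2 (log2 fold change 0.305, adjusted p = 0.023) and as a rise on the other 3 scalings, nor at day 7 (log2 fold change -0.22, SE 0.12, adjusted p = 0.131), where its value turned positive on the other 3 scalings and was called a rise on both TPM scales. From day 1 to day 7 it fell (log2 fold change -0.38, SE 0.12, adjusted p = 0.0183), a call lost without day 1 replicate 1 (adjusted p = 0.0508). Ldhb stood at 1834, 1853, 1783 and 1935 CPM in the sham hearts, at 966, 937, 1045 and 1215 CPM at day 1 and at 686, 703, 839.6 and 678 CPM at day 7. Its 3 groups did not overlap, with sham the highest and day 7 the lowest. Ldhb fell at day 1 (log2 fold change -0.83, SE 0.10, adjusted p = 5.32e-05), at day 7 (log2 fold change -1.35, SE 0.10, adjusted p = 1.51e-07) and between the days (log2 fold change -0.52, SE 0.10, adjusted p = 0.000819). The TPM ratio of Ldha to Ldhb was higher by 1.02 at day 1 and by 1.24 at day 7, and the share of Ldha went from 26.5 ± 3.84% in sham to 42.2 ± 4.56% at day 1 and 45.8 ± 3.21% at day 7.

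Lactate crosses the cell membrane through monocarboxylate transporters, here MCT1 (Slc16a1), the main form of the heart, and MCT4 (Slc16a3), a form of strongly glycolytic cells. Slc16a1 stood at 329, 296, 249 and 241 CPM in the sham hearts, at 316, 329, 289 and 293 CPM at day 1 and at 195, 204, 196 and 188 CPM at day 7. Sham and day 1 overlapped, and every day 7 heart was below both. Slc16a1 did not pass the test at day 1 (log2 fold change 0.14, SE 0.097, adjusted p = 0.27). It fell at day 7 against day 1 (log2 fold change -0.65, SE 0.098, adjusted p = 0.00012) and against sham (log2 fold change -0.51, SE 0.098, adjusted p = 0.000439), the latter turning positive on both TPM scales. Slc16a3 stood at 3.02, 5.17, 2.13 and 1.96 CPM in the sham hearts, at 40.01, 56.3, 18.8 and 15.3 CPM at day 1 and at 17.7, 10.8, 8.96 and 14.6 CPM at day 7. All infarcted hearts were above all sham hearts, day 1 replicates 1 and 2 were well above the rest, and day 1 and day 7 overlapped. Slc16a3 rose at day 1 (log2 fold change 3.39, SE 0.43, adjusted p = 7.03e-05) and at day 7 (log2 fold change 2.07, SE 0.43, adjusted p = 0.000808). Its fall between the days (log2 fold change -1.32, SE 0.38, adjusted p = 0.0103) was -0.92 without day 1 replicate 2, under the fold rule. The TPM ratio of Slc16a3 to Slc16a1 was higher by 3.53 at day 1 and 2.97 at day 7, and the share of Slc16a3 went from 1.9 ± 0.985% in sham to 19.2 ± 8.54% at day 1 and 13.5 ± 4.45% at day 7.

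**Figure D5:**
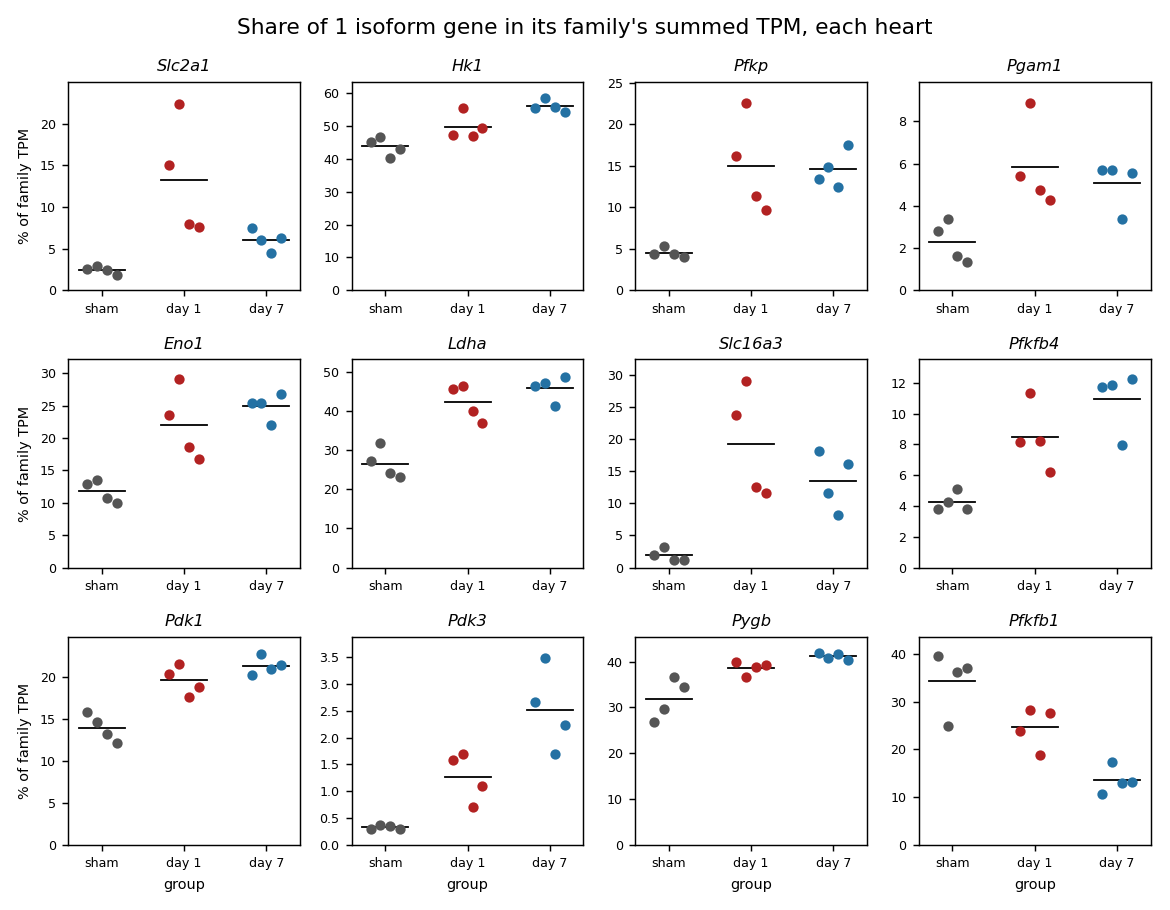
Percent of its family's summed TPM taken by 1 isoform gene in each heart (points, in the order of the replicates) with the group mean (line), for 12 isoform genes. The mean share is higher at both days than in sham in all panels but that of Pfkfb1, and shares of TPM within a heart do not change with the library scaling.

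The PFKFB enzymes make and remove fructose 2,6-bisphosphate, an activator of phosphofructokinase. Pfkfb1 stood at 21.1, 16.1, 17.4 and 23.1 CPM in the sham hearts, at 9.82, 11.1, 8.96 and 12.2 CPM at day 1 and at 4.07, 5.21, 5.86 and 5.61 CPM at day 7. Its 3 groups did not overlap, with sham the highest and day 7 the lowest. Pfkfb1 fell at day 1 (log2 fold change -0.88, SE 0.15, adjusted p = 0.000399), at day 7 (log2 fold change -1.90, SE 0.15, adjusted p = 2.59e-07) and between the days (log2 fold change -1.02, SE 0.15, adjusted p = 0.000108), the last under the fold rule without day 1 replicate 4 or day 7 replicate 1 (log2 fold change -0.95 and -0.92). Pfkfb2, the heart form, stood at 77.8, 101, 63.2 and 68.4 CPM in the sham hearts, at 45, 26.3, 56.2 and 48.8 CPM at day 1 and at 57, 48.6, 73 and 58 CPM at day 7. Every day 1 heart was below every sham heart, and day 7 overlapped both. Pfkfb2 fell at day 1 (log2 fold change -0.82, SE 0.20, adjusted p = 0.0057), a call the TPM scales did not give, and did not pass the test at day 7 (log2 fold change -0.39, SE 0.20, adjusted p = 0.11) except without day 1 replicate 2 (adjusted p = 0.0354) and in a fit of only the 2 groups compared (adjusted p = 0.0447), and its day 7 value turned positive on both TPM scales. Its difference between the days (log2 fold change 0.42, SE 0.20, adjusted p = 0.101) did not pass, though it did without day 1 replicate 3 (adjusted p = 0.0485) and on the other 3 scalings (adjusted p from 0.0239 to 0.0443).

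Pfkfb4 stood at 4.8, 5.67, 5.04 and 4.59 CPM in the sham hearts, at 6.61, 8.89, 6.67 and 5.7 CPM at day 1 and at 9.3, 7.88, 7.56 and 10.2 CPM at day 7. Every infarcted heart was above every sham heart. Pfkfb4 rose at day 1 (log2 fold change 0.47, SE 0.15, adjusted p = 0.0252), lost without sham replicate 1 or 4 or day 1 replicate 2 (adjusted p = 0.0539, 0.0671 and 0.098), and at day 7 (log2 fold change 0.80, SE 0.15, adjusted p = 0.000489). Pfkfb3 had 16 ± 6.07 CPM in sham, 23.7 ± 5.28 CPM at day 1 and 21 ± 3.24 CPM at day 7. It did not pass the test at day 1 (log2 fold change 0.56, SE 0.22, adjusted p = 0.051), though it did without sham replicate 4 or day 1 replicate 4 (log2 fold change 0.846 and 0.652, adjusted p = 0.00321 and 0.0368). Nor did it pass at day 7 (log2 fold change 0.39, SE 0.22, adjusted p = 0.14), except without sham replicate 4 (log2 fold change 0.668, adjusted p = 0.00632). At day 1 it passed as well without the filter, with the block, in DESeq2 (adjusted p = 0.0246, 0.0392 and 0.0333) and, as at day 7, on the other 3 scalings. In TPM the ratio of Pfkfb4 to Pfkfb2 was higher by 1.14 at day 1 and 1.14 at day 7. The ratio of Pfkfb3 to Pfkfb2 was higher by 1.42 at day 1, and that of Pfkfb1 to Pfkfb2 changed by -1.52 at day 7 and by -1.24 from day 1 to day 7. The share of Pfkfb1 in the summed TPM of the 4 genes went from 34.4 ± 6.53% in sham to 24.6 ± 4.36% at day 1 and 13.5 ± 2.84% at day 7.

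Pyruvate dehydrogenase kinases switch off the entry of pyruvate into the mitochondria. Pdk1 stood at 260.4, 224, 218 and 219.5 CPM in the sham hearts, at 180.2, 170.3, 173 and 194 CPM at day 1 and at 126, 152, 161 and 143 CPM at day 7. The groups did not overlap, in the order sham, day 1, day 7 from high to low, and sham replicate 1 was the highest. Pdk1 fell at day 1 (log2 fold change -0.36, SE 0.090, adjusted p = 0.00575) and at day 7 (log2 fold change -0.66, SE 0.090, adjusted p = 2.51e-05), calls that none of the other 3 scalings gave at day 1 and neither TPM scale gave at day 7. Pdk2 stood at 584, 537, 581 and 640.3 CPM in the sham hearts, at 283, 248, 336 and 345 CPM at day 1 and at 204, 204, 263 and 215 CPM at day 7. All infarcted hearts were below all sham hearts. Pdk2 fell at day 1 (log2 fold change -0.95, SE 0.12, adjusted p = 5.72e-05), past the fold rule without day 1 replicate 3 or 4 (log2 fold change -1.003 and -1.019), and at day 7 (log2 fold change -1.40, SE 0.12, adjusted p = 3.76e-07). Pdk3 stood at 1.98, 2.18, 2.23 and 2.06 CPM in the sham hearts, at 5.46, 5.22, 2.71 and 3.69 CPM at day 1 and at 5.91, 7.18, 5.46 and 6.01 CPM at day 7. Every infarcted heart was above every sham heart, and day 1 replicate 3 was the closest to them. Pdk3 rose at day 1 (log2 fold change 1.01, SE 0.21, adjusted p = 0.00171) and at day 7 (log2 fold change 1.54, SE 0.21, adjusted p = 2.26e-05). Its day 1 value was under the fold rule without sham replicate 1 or 4 or day 1 replicate 1 or 2 (0.984, 0.999, 0.876 and 0.900), and its rise between the days (log2 fold change 0.53, SE 0.19, adjusted p = 0.038) was lost without day 1 replicate 3 or 4 or day 7 replicate 1, 2 or 4 (adjusted p from 0.0552 to 0.107), without the filter (adjusted p = 0.0533) and in a fit of only the 2 groups compared (adjusted p = 0.0631).

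In TPM, Pdk2 was the most abundant of these 3 kinases in each group, at 323 ± 19.8 TPM in sham, 210.1 ± 33.4 TPM at day 1 and 181 ± 19.6 TPM at day 7. The fourth kinase, Pdk4, described with the other genes of the pathway and not in the shares here, was at 448 ± 334 TPM in sham, 196 ± 50.8 TPM at day 1 and 188 ± 71.8 TPM at day 7, so its mean was above that of Pdk2 in sham and at day 7. Single hearts were at 191.9, 164.54, 866.7 and 568.3 TPM in sham and 221.13, 104.16, 268.47 and 158.35 TPM at day 7. In either group the mean of Pdk4 would lie below that of Pdk2 without replicate 3. The ratio of Pdk1 to Pdk2 was higher by 0.61 at day 1 and by 0.79 at day 7, and that of Pdk3 to Pdk2 by 1.91 and 2.97. The share of Pdk3 went from 0.33 ± 0.0348% in sham to 1.27 ± 0.464% at day 1 and 2.52 ± 0.757% at day 7.

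Glycogen synthase (Gys1) builds glycogen, and the phosphorylases of muscle (Pygm), brain (Pygb) and liver (Pygl) release glucose units from it. Gys1 had 194 ± 34.5 CPM in sham, 149.6 ± 1.91 CPM at day 1 and 112 ± 3.44 CPM at day 7, and fell at day 1 (log2 fold change -0.37, SE 0.10, adjusted p = 0.0104) and at day 7 (log2 fold change -0.79, SE 0.10, adjusted p = 1.76e-05), calls that neither TPM scale gave on either day nor library sizes alone at day 1. Pygm stood at 1677, 1560, 1496 and 1647 CPM in the sham hearts, at 899, 752, 960.2 and 1080 CPM at day 1 and at 644, 619, 745 and 612 CPM at day 7. Its groups did not overlap, with sham the highest and day 7 the lowest. Pygm fell at day 1 (log2 fold change -0.79, SE 0.11, adjusted p = 0.000114), at day 7 (log2 fold change -1.28, SE 0.11, adjusted p = 4.41e-07) and between the days (log2 fold change -0.49, SE 0.11, adjusted p = 0.00206). Pygb stood at 1108, 995, 1269 and 1316 CPM in the sham hearts, at 888, 666, 943 and 1044 CPM at day 1 and at 756, 709, 903 and 694 CPM at day 7. Sham and day 1 overlapped, and every day 7 heart was below every sham heart. Pygb fell at day 1 (log2 fold change -0.40, SE 0.14, adjusted p = 0.03), lost without sham replicate 3 or 4 or day 1 replicate 1 or 2 (adjusted p from 0.0622 to 0.0896), and at day 7 (log2 fold change -0.61, SE 0.14, adjusted p = 0.00156), and the other 3 scalings gave neither call.

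Pygl ranged from 5.996 CPM in sham replicate 1 to 14.1 CPM in day 1 replicate 2 and rose at day 1 (log2 fold change 0.67, SE 0.18, adjusted p = 0.00893) and at day 7 (log2 fold change 0.76, SE 0.18, adjusted p = 0.0025). The TPM ratio of Pygb to Pygm was higher by 0.45 at day 1, by 0.61 at day 7 and by 0.16 from day 1 to day 7, and that of Pygl to Pygm by 1.93 at day 7 (at day 1 1.33, exact p = 0.0571, adjusted p = 0.0833). The share of Pygb went from 31.9 ± 4.41% in sham to 38.7 ± 1.45% at day 1 and 41.2 ± 0.711% at day 7.

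All 4 pentose phosphate members rose at day 1, beside 22% of all genes. Of the 7 other tested genes of that pathway 1 did (median log2 fold change 0.041), and the difference was not tested. G6pdx, the glucose 6-phosphate dehydrogenase that opens the pathway, stood at 8.08, 9.48, 6.21 and 6.55 CPM in the sham hearts, at 15.3, 20.3, 14.8 and 11.9 CPM at day 1 and at 15.5, 11.6, 11.9 and 15.7 CPM at day 7. Every infarcted heart was above every sham heart, and day 1 replicate 2 was the highest. G6pdx rose at day 1 (log2 fold change 1.04, SE 0.18, adjusted p = 0.000515) and at day 7 (log2 fold change 0.85, SE 0.18, adjusted p = 0.000953), and its day 1 value was under the fold rule without sham replicate 3 or 4 or day 1 replicate 2 (0.951, 0.970 and 0.881). Pgd, the next dehydrogenase, had 33.6 ± 2.55 CPM in sham, 65.9 ± 9.72 CPM at day 1 and 48 ± 6.96 CPM at day 7 and rose at day 1 (log2 fold change 0.97, SE 0.12, adjusted p = 5.32e-05), past the fold rule without sham replicate 2 or day 1 replicate 3 or 4 (1.014, 1.020 and 1.013), and at day 7 (log2 fold change 0.51, SE 0.12, adjusted p = 0.00172). Tkt, transketolase, had 26.6 ± 4.47 CPM in sham, 44.3 ± 6.8 CPM at day 1 and 49.9 ± 7.84 CPM at day 7 and rose at day 1 (log2 fold change 0.73, SE 0.14, adjusted p = 0.0013) and at day 7 (log2 fold change 0.91, SE 0.14, adjusted p = 9.88e-05), with a value of 1.005, past the fold rule, without sham replicate 2. Taldo1, transaldolase, had 87.5 ± 6.43 CPM in sham, 113 ± 7.39 CPM at day 1 and 74 ± 2.64 CPM at day 7 and rose at day 1 (log2 fold change 0.37, SE 0.075, adjusted p = 0.00145). Its fall at day 7 (log2 fold change -0.24, SE 0.075, adjusted p = 0.0132) turned positive on the other 3 scalings, as a called rise on both TPM scales, whereas its fall from day 1 to day 7 (log2 fold change -0.61, SE 0.075, adjusted p = 2.24e-05) kept its call in all 3.

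Of 82 other genes of glucose metabolism in 9 lists, 72 were tested. At day 1, 13 rose and 33 fell, beside 22% and 19.9% of all genes, and 6 and 8 did with the fold rule, beside 7.79% and 2.98%. At day 7, 15 rose and 44 fell, beside 30.9% and 28.4%, and 5 and 12 did with the fold rule, beside 15.3% and 5.88%. The counts of the single lists stand beside the same shares of all genes, and several lie near them, such as the rises of the regulators and of the hexosamine and polyol genes at day 7. Falls were the majority in genes of pyruvate entry, where 9 of 11 fell at day 1 and all 11 at day 7. Among these, Pdk4, the kinase that responds to fatty acids, stood at 489.7, 302, 1508 and 1109 CPM in the sham hearts, at 350.4, 308, 141 and 222 CPM at day 1 and at 227, 150, 365 and 204 CPM at day 7. Sham replicates 3 and 4 were far above the rest, and sham replicate 2 was below day 1 replicates 1 and 2 and day 7 replicate 3, so sham overlapped both days. Pdk4 fell at day 1 (log2 fold change -1.74, SE 0.44, adjusted p = 0.00592) and day 7 (log2 fold change -1.85, SE 0.44, adjusted p = 0.00224), calls that neither TPM scale gave, and its day 1 value was -1.31 without sham replicate 3 and -1.59 without sham replicate 4, with the call kept. Pdp2, a phosphatase that reactivates the complex, had -1.11 (-0.950 without day 1 replicate 2) and -1.64. Pdha1, a subunit of the complex (-1.02), and Mpc2, of the mitochondrial pyruvate carrier (-1.15), passed the fold rule at day 7, Pdha1 not without sham replicate 1 or day 7 replicate 1 or 4 (-0.978, -0.977 and -0.999). With the other scalings, the rises and falls of the 72 genes at day 1 numbered 22 and 19 with library sizes alone, 21 and 11 on TPM + 1 and 22 and 10 on TPM + 0.1. At day 7 they numbered 22 and 30 with library sizes alone and 27 and 16 on both TPM scales, so that there rises outnumbered falls.

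Of the 7 tested genes of other glycolytic steps, 2 rose and 5 fell at day 1, and 2 rose and 4 fell at day 7, of which 1 rise was lost without sham replicate 3 or 4 or day 7 replicate 1 or 4. Bpgm fell at day 1 (-1.06), and at day 7 Ldhd fell (-1.70) while Eno2, the neuronal enolase, rose (1.56). Bpgm, which red blood cells express strongly, was highest in sham replicate 2 (78.1 CPM), the heart with the highest erythroid markers, and without it the day 1 value was -0.602, under the fold rule, as it was without day 1 replicate 1 (-0.999). Neither TPM scale called it. Among 5 genes of glucose uptake 3 rose and 2 fell at each day, with Slc2a6 (2.19 and 2.17) and at day 7 Slc2a10 (1.56) past the fold rule. The rise of 1 other was lost at day 1 without sham replicate 4 or day 1 replicate 1 or 2 (adjusted p from 0.0584 to 0.0808). Its rise at day 7 was lost without sham replicate 2, 3 or 4, day 1 replicate 1 or any 1 day 7 heart (adjusted p from 0.0529 to 0.143). Among 3 genes of lactate transport, Emb, a partner of monocarboxylate transporters, rose (2.69 and 2.04) and 2 fell at each day, but at day 7 only 1 fell without sham replicate 1 or 2, day 1 replicate 1, 3 or 4 or any 1 day 7 heart.

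Of 20 tested glycogen genes 2 rose and 8 fell at day 1 and 3 rose and 13 fell at day 7. Pgm1 rose at both days (1.03 and 1.31), Stbd1 at day 1 (1.28), Epm2a fell at both (-1.07 and -1.17) and Phkg1 at day 7 (-1.50). Pgm1 was low, at 4.015, 4.064, 4.945 and 3.393 CPM in the sham hearts. Genes were listed by symbol, and whether the enzyme behind the symbol Pgm1 in this annotation serves glycogen was not checked. At day 1 Pgm1 was under the fold rule without sham replicate 4 or day 1 replicate 1 or 2 (0.946, 0.996 and 0.878), and Epm2a without day 1 replicate 2 (-0.957). Of 5 tested genes of gluconeogenesis none rose and 2 fell at day 1, and 1 rose and 3 fell at day 7, with Fbp2 (-1.82) and Pcx (-1.14) past the fold rule. At day 1 the fall of Pcx was lost without sham replicate 4 or day 1 replicate 1 or 2 (adjusted p = 0.0535, 0.0656 and 0.0527), which left 1. Of 7 genes of the hexosamine and polyol branches 3 rose and 2 fell at day 1 and 2 rose and 3 fell at day 7, with Pgm3 at day 1 (1.01, but 0.951, 0.964 and 0.971 without sham replicate 1, sham replicate 3 or day 1 replicate 2) and Sord at day 7 (-1.39) past it. Of 7 other pentose phosphate genes tested, 1 rose and none fell at day 1, and 1 rose and 2 fell at day 7. At day 1, 2 of these rose without sham replicate 2 or 4, and 1 fell without sham replicate 3 or day 1 replicate 4. Of 7 regulators 1 rose and 3 fell at day 1 and 2 rose and 4 fell at day 7: Myc rose at day 1 (2.01), Txnip, a brake on glucose uptake, fell at both days (-1.34 and -1.39), and Mlxipl, a glucose-responsive transcription factor, fell at both days (-1.18 and -0.79).

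Some members share sequence with other genes, and how reads that fit several genes were counted is not stated. Stretches of 75 bases were shared with other annotated genes for 52.8% of those of Pgk1, 34.9% of Pgam1, 23% of Eno1, 22.6% of Gapdh, 17.8% of Pkm, 15.2% of Pfkfb2 and 12.6% of Ldhb. The 3 genes that share such stretches with Pkm, of which Gm49759 shares the most, held 9034 counts over the 12 hearts, against 417863 for Pkm. Exons of Ikbkg lie on the opposite strand over 13.6% of the exon bases of G6pdx, and those of Gm26762 over 11.5% of Gpi1. The strand setting of the counts is not stated, so counts from those exons cannot be assigned here.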

How the data were processed

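RNA of 12 whole mouse hearts (4 sham, 4 at day 1 and 4 at day 7 of AMI) was measured. Gene counts, as deposited, came from reads that the authors called with CASAVA 1.8, trimmed with Cutadapt and aligned with STAR 2.4.0j, and the counter and its strand setting are not stated. TPM values, as deposited, were made by the authors with RSEM. Counts of 15306 genes kept by filterByExpr were fitted in edgeR 4.0.16 (TMM factors, quasi-likelihood test on the 12 hearts, Benjamini-Hochberg adjustment over all genes tested) in R 4.3.3, for day 1 against sham, day 7 against sham and day 7 against day 1. A gene rose or fell at an adjusted p under 0.05, and a further rule asked for a fold change of at least 2. CPM values are scaled by TMM factors. Isoform ratios used TPM plus 0.1 and an exact two-sided permutation test in Python 3.11.15 with numpy 2.4.6, scipy 1.17.1 and pandas 2.3.3, and figures used matplotlib 3.10.9. Depth is given in the report, and with 4 hearts a group small changes can go undetected. Alternatives were DESeq2 1.42.0, limma 3.58.1 on log2(TPM + 1) and log2(TPM + 0.1), RLE factors, library sizes alone, no filter on low counts, 2 groups at a time, a block on replicate number, and each heart left out in turn. For the isoforms they were TPM plus 1, log2 CPM and shares of counts. The 38 members and the lists (9 of other pathway genes, 12 of markers) were chosen with earlier results of these data known. Other genes of the pathway are named only where they passed both rules against sham, and not all that passed are named. Gene positions and transcript sequences are GENCODE M21. The edgeR fit and the exact test were tried on simulated data. For edgeR, 200 of 15122 genes were changed at day 1, as many up as down. It called 97 of 100 genes changed 2-fold and 100 of 100 changed 4-fold, with 4 false calls. Far fewer genes changed there than were called in these hearts, so the simulation did not test the choice of scaling.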

Additional observations from a re-analysis of the deposited data

Results flagged for a closer look

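Dixon's test on the 4 hearts of a group, for each of the 38 members in 3 groups, found 2 hearts apart from the rest of their group among 114 groups, while chance flags about 1 in 20 groups. Gapdh in day 1 replicate 4 was at 2710 CPM, with the others from 3160 to 3254 CPM. Pdk1 in sham replicate 1 was at 260 CPM, with the others from 218 to 224 CPM. The cause was not tested.

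In 6 members the log2 values against sham had opposite signs at day 1 and day 7, and the difference between the days passed the edgeR quasi-likelihood test. Their log2 fold changes from day 1 to day 7 were -0.626 for Hk1, -1.024 for Hk2, -0.438 for Pgk1, -0.384 for Ldha, -0.649 for Slc16a1 and -0.615 for Taldo1. With library sizes alone the day 7 values of Hk1, Pgk1, Ldha and Taldo1 were positive, as they were on TPM, so for these the opposite signs depend on the scaling. That of Slc16a1 was positive on TPM only, where the test and the quantifier differ as well. For Hk2 the opposite signs held in each of these fits.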

How the results depend on the processing

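Results were refitted in 20 settings. DESeq2 and RLE factors changed no count of calls by over 1.5 times, and among the members turned the sign of 1 value, that of Gapdh between the days (0.003, to -0.020 in DESeq2 and -0.016 with RLE factors), which was not called. Library sizes alone and the fits on TPM did both, with more rises and fewer falls. The TPM fits are limma on RSEM values and change the test, the quantifier and the length unit along with the scaling, so moves given below for TPM and not for library sizes alone cannot be put down to scaling. Library sizes alone, by construction, shift all genes of a comparison together, and the medians given in the report show by how much. In isoform ratios and TPM shares the scaling of a heart cancels, and TPM + 1 gave 13, 15 and 3 pairs apart and log2 CPM 14, 14 and 4. Shares of counts, which are not per length, differed from the TPM shares by at least the SD between hearts in 57 group means and by less in 27. Their direction against sham was that of TPM at both days for each gene but Pfkfb2 at day 7. At day 7 Hk2 had the larger share than Hk1, Ldha than Ldhb and Pygb than Pygm in counts, and the smaller in TPM. For Hk1 and Hk2 the order also differed at day 1, with mean TPM shares of 49.68% and 48.64% and mean CPM of 295.1 and 416.7.

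Counts moved at day 1 against sham were: members lower, from 16 to 8 (library sizes alone) and 7 (TPM + 1 and TPM + 0.1) and other pathway genes higher, from 13 to 22 (library sizes alone and TPM + 0.1) and 21 (TPM + 1). There followed other pathway genes lower, from 33 to 19 (library sizes alone), 11 (TPM + 1) and 10 (TPM + 0.1) and other pathway genes lower by both rules, from 8 to 3 (library sizes alone) and 1 (TPM + 1 and TPM + 0.1). Next were all genes higher, from 3360 to 6289 (library sizes alone), 6171 (TPM + 1) and 6391 (TPM + 0.1) and all genes lower, from 3043 to 1061 (library sizes alone), 737 (TPM + 1) and 762 (TPM + 0.1). Further counts were all genes lower by both rules, from 456 to 217 (library sizes alone), 63 (TPM + 1) and 145 (TPM + 0.1).

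Counts moved at day 7 against sham were: members higher, from 10 to 17 (TPM + 1 and TPM + 0.1) and members lower, from 21 to 12 (library sizes alone) and 8 (TPM + 1 and TPM + 0.1). There followed members higher by both rules, from 3 to 9 (library sizes alone, TPM + 1 and TPM + 0.1) and members lower by both rules, from 7 to 2 (library sizes alone) and 1 (TPM + 1 and TPM + 0.1). Next were other pathway genes higher, from 15 to 27 (TPM + 1 and TPM + 0.1) and other pathway genes lower, from 44 to 16 (TPM + 1 and TPM + 0.1). Further counts were other pathway genes higher by both rules, from 5 to 9 (library sizes alone) and 12 (TPM + 0.1) and other pathway genes lower by both rules, from 12 to 6 (library sizes alone), 3 (TPM + 1) and 4 (TPM + 0.1). Also moved were all genes higher, from 4728 to 8237 (library sizes alone), 9423 (TPM + 1) and 9462 (TPM + 0.1) and all genes lower, from 4353 to 1659 (library sizes alone), 1023 (TPM + 1) and 1009 (TPM + 0.1). There followed all genes higher by both rules, from 2346 to 3633 (library sizes alone) and 4163 (TPM + 0.1) and all genes lower by both rules, from 900 to 318 (library sizes alone), 111 (TPM + 1) and 189 (TPM + 0.1).

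Counts moved for day 7 against day 1 were: members higher, from 1 to 3 (library sizes alone), 0 (no filter and 2 groups at a time) and 5 (TPM + 1 and TPM + 0.1) and members lower, from 22 to 14 (library sizes alone) and 6 (TPM + 1 and TPM + 0.1). There followed members lower by both rules, from 4 to 2 (library sizes alone) and 1 (TPM + 1 and TPM + 0.1) and other pathway genes higher, from 8 to 16 (library sizes alone), 15 (TPM + 1) and 14 (TPM + 0.1). Next were other pathway genes lower, from 29 to 16 (TPM + 1 and TPM + 0.1) and other pathway genes higher by both rules, from 1 to 2 (library sizes alone, TPM + 1 and TPM + 0.1). Further counts were other pathway genes lower by both rules, from 4 to 1 (library sizes alone and TPM + 0.1) and 0 (TPM + 1) and all genes lower, from 3496 to 2168 (library sizes alone), 1302 (TPM + 1) and 1268 (TPM + 0.1). Also moved were all genes lower by both rules, from 411 to 130 (TPM + 1) and 208 (TPM + 0.1).

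The signs of these log2 fold changes of members turned with library sizes alone or on TPM, whether called or not. At day 1 they were Gpi1 from -0.206 to 0.065 (library sizes alone) and 0.131 (TPM + 1 and TPM + 0.1) and Pfkl from -0.101 to 0.162 (library sizes alone), 0.201 (TPM + 1) and 0.204 (TPM + 0.1). At day 1 further ones were Tpi1 from -0.279 to 0.036 (TPM + 1 and TPM + 0.1) and Gapdh from -0.257 to 0.018 (library sizes alone) and 0.049 (TPM + 1 and TPM + 0.1). At day 1 further ones were Pkm from -0.013 to 0.257 (library sizes alone), 0.275 (TPM + 1) and 0.276 (TPM + 0.1). At day 7 they were Hk1 from -0.174 to 0.222 (library sizes alone), 0.409 (TPM + 1) and 0.415 (TPM + 0.1) and Gpi1 from -0.398 to 0.001 (library sizes alone) and 0.069 (TPM + 1 and TPM + 0.1). At day 7 further ones were Pfkl from -0.381 to 0.010 (library sizes alone), 0.325 (TPM + 1) and 0.330 (TPM + 0.1) and Tpi1 from -0.563 to 0.026 (TPM + 1 and TPM + 0.1). At day 7 further ones were Gapdh from -0.254 to 0.149 (library sizes alone) and 0.424 (TPM + 1 and TPM + 0.1) and Pgk1 from -0.205 to 0.192 (library sizes alone), 0.349 (TPM + 1) and 0.350 (TPM + 0.1). At day 7 further ones were Pkm from -0.488 to 0.096 (TPM + 1 and TPM + 0.1) and Ldha from -0.222 to 0.173 (library sizes alone), 0.427 (TPM + 1) and 0.428 (TPM + 0.1). At day 7 further ones were Slc16a1 from -0.510 to 0.058 (TPM + 1) and 0.059 (TPM + 0.1) and Pfkfb2 from -0.393 to 0.215 (TPM + 1) and 0.221 (TPM + 0.1). At day 7 further ones were Taldo1 from -0.241 to 0.153 (library sizes alone), 0.306 (TPM + 1) and 0.308 (TPM + 0.1). Between the days they were Pfkl from -0.280 to 0.124 (TPM + 1) and 0.126 (TPM + 0.1) and Eno1 from -0.203 to 0.069 (TPM + 1 and TPM + 0.1). Between the days further ones were Pygb from -0.210 to 0.103 (TPM + 1 and TPM + 0.1) and G6pdx from -0.186 to 0.114 (TPM + 1) and 0.127 (TPM + 0.1).

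Leaving out 1 heart at a time moved the members that rose by both rules at day 1 from 7 to between 3 and 9, and those that fell by both rules from 0 to between 0 and 2. Between the days it moved the members that rose from 1 to between 0 and 2, and the other pathway genes that fell by both rules from 4 to between 2 and 4.

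The labels do not say whether replicate numbers pair the hearts. In deviations from the group mean, the 12 same-number pairs had correlations from -0.244 to 0.229, of which 4 were over 0.1. Of the 12 hearts, 2 correlated best with their own number. With 4 hearts a group, these correlations do not settle whether the numbers pair hearts. With the number as a block the counts were as follows. Members day 1: 16 higher and 14 lower, by both rules 6 and 0. Other pathway genes day 1: 14 higher and 33 lower, by both rules 6 and 7. All genes day 1: 3137 higher and 2746 lower, by both rules 1180 and 441. Members day 7: 12 higher and 19 lower, by both rules 4 and 7. Other pathway genes day 7: 15 higher and 43 lower, by both rules 5 and 12. All genes day 7: 4589 higher and 4158 lower, by both rules 2341 and 899. Members between the days: 1 higher and 23 lower, by both rules 0 and 4. Other pathway genes between the days: 8 higher and 31 lower, by both rules 1 and 4. All genes between the days: 3511 higher and 3271 lower, by both rules 1304 and 392. Isoform pairs with all 4 same-number differences of the same sign numbered 16, 17 and 7, and the exact sign-flip test on them cannot go under 0.125. The cause of the moves was not tested.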
